A study of Apis mellifera with 24 samples.

Results

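In the honey bee (Apis mellifera) brain, 23 of 8262 genes had a higher mean in reproductive than in sterile workers in each of 4 lineages and also met the limits given next. The 8262 were the genes with a mean of 5 or more CPM (counts scaled to a common library total), out of 15314 in the expression table. CPM totals left out 16 very abundant identifiers, and differences are on the scale log2(CPM + 1). Members had a reproductive minus sterile difference above 0 in all 4 lineages and an average of at least 0.4. After lineage means were subtracted, their absolute Pearson correlation with GB55205, 1 of the 16 abundant identifiers, was under 0.5. The genes were chosen by their status difference in these same bees, so every value of it is a description and no test of status is drawn from it.

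Polyadenylated RNA was sequenced from the brains of 24 individual workers raised in queenless colonies, with 3 reproductive and 3 sterile bees in each lineage. All lineages were crosses of Africanized and European bees, written mother first. L875 was Eur x Afr and L888 was Afr x Eur, both in block A, and L882 was Eur x Afr and L894 was Afr x Eur, both in block B. Each cross direction in a block was 1 lineage, so cross direction and lineage cannot be told apart within a block. Bees of a lineage share parents as far as the lineage label says, and the p-values measure the spread between these bees.

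A queen normally suppresses reproduction by workers, and when she is lost some workers activate their ovaries and lay eggs. Brain gene expression in such workers is studied because ovary activation goes with changed behaviour and hormone state. Kinship theory holds that the allele from the mother and the allele from the father can have different interests in worker reproduction, which is why reciprocal crosses and allele counts are used. The expression table names genes by GB identifiers alone, and none of the 23 could be paired with a symbol, so no function is given for any of them and neuronal, glial or gland markers could not be checked.

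Libraries held 5.19 to 16.7 M expected counts, and 3.84 to 9.79 M without the 16 abundant identifiers. Those 16 took between 3.51% and 65.9% of a reproductive library (median 28.9%) and between 8.47% and 71.4% of a sterile one (median 47.4%). Their share therefore moved with status, and its part in the differences given here was not tested. Of 39 genes that met the conditions on the status difference alone, 16 were dropped by the limit on the correlation with GB55205, and all 16 had a negative correlation (-0.76 to -0.50). Among the 23 members 18 had a negative correlation with GB55205, with a median of -0.20, beside a median of -0.13 over all 8262 genes.

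The list was a small share of the genes, 0.278% of those examined. The same rule turned round, for genes lower in reproductive bees, gave 26 genes, or 0.315%. The average differences of the 23 members had a median of 0.52, and 15 members reached 0.5 while 1 reached 1. Differences were uneven among lineages, since 14 members had at least 1 lineage in which the difference was under 0.2. Just inside the limit were GB49781 and GB41162, both with an average of 0.41, and just outside it were GB47741 at 0.397 and GB48065 at 0.39. Near the correlation limit, GB54170 at -0.49 and GB55454 at -0.48 were kept, and GB40590 at -0.50 and GB50324 at -0.53 were not.

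**Figure D1:**
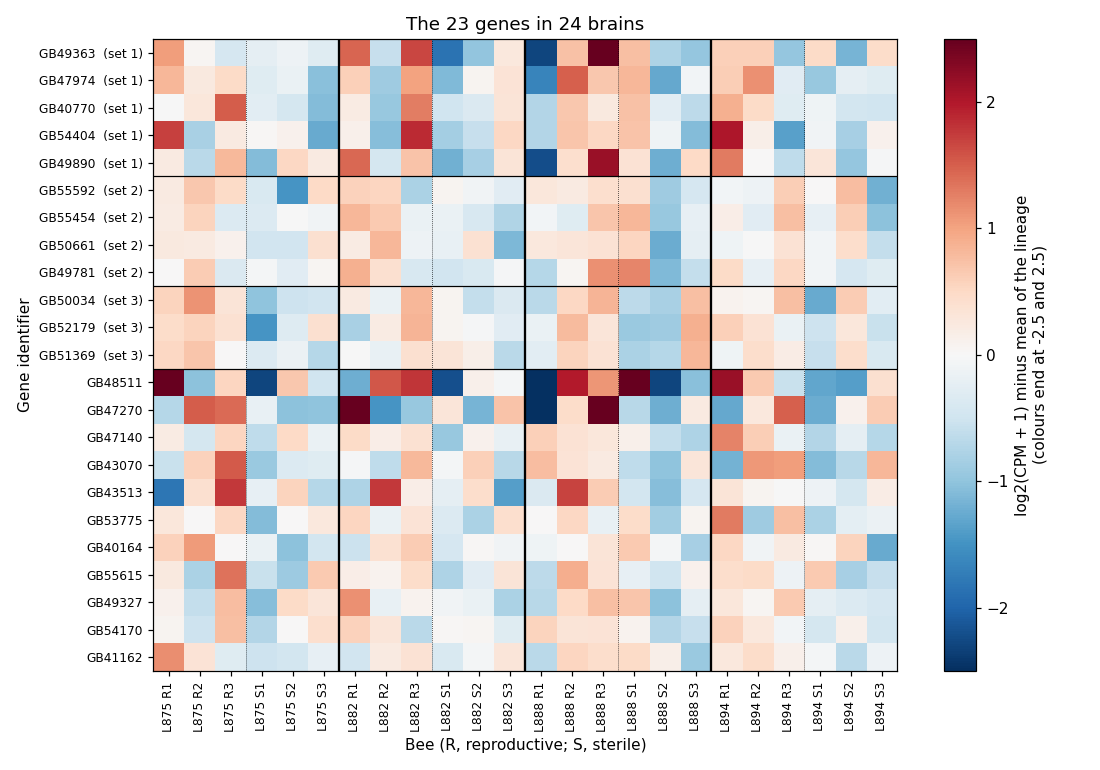
Deviation of each of the 23 genes (rows) from its lineage mean in each of the 24 bees (columns), on the scale log2(CPM + 1). Reproductive bees were mostly above and sterile bees mostly below the lineage mean, which the rule favours. L888 Reproductive 1 (median deviation -0.65) and L888 Sterile 1 (0.46) went the other way.

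In single bees the statuses overlapped widely. For 13 members the reproductive and sterile bees overlapped in all 4 lineages, 9 members were separate in 1 lineage, 1 was separate in 3 and 0 were separate in all 4. All reproductive bees lay above all sterile bees for 5 members in L875, 1 in L882, 3 in L888 and 3 in L894. The same was true of 1.63%, 5.8%, 4.38% and 6.78% of all genes in those lineages. The rule used this contrast, so nothing is read from the counts.

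GB47140 was the gene separate in 3 lineages. In L888 its reproductive bees had 87.9, 75.2 and 70.9 CPM and its sterile bees 63.9, 37.9 and 33.5 CPM. In L882 the values were 62.3, 49.5 and 58.0 CPM against 22.5, 47.7 and 38.5 CPM. In L894 they were 82.9, 54.0 and 30.8 CPM against 20.4, 29.4 and 20.7 CPM. The lowest reproductive bee of L882 and of L894 stood only slightly above the highest sterile bee. In L875 the bees were mixed, with 44.5, 28.4 and 56.2 CPM in reproductive and 24.6, 55.3 and 34.1 CPM in sterile bees. Its log2 differences were 0.20 in L875, 0.69 in L882, 0.83 in L888 and 1.13 in L894.

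GB50034 was the member with the largest smallest difference, 0.47 in L888, and the only 1 whose difference passed 0.4 in every lineage. Its reproductive bees in L875 had 77.4, 114 and 65.4 CPM and its sterile bees 25.4, 35.9 and 37.1 CPM, with no overlap. In L888 the reproductive bees had 69.2, 160 and 200 CPM, and the sterile bees 70.1, 63.0 and 187 CPM. The sterile bee at 187 CPM was above 2 of the reproductive bees there. Values in L882 were 149, 113 and 226 CPM against 133, 83.9 and 98.2 CPM, and in L894 they were 114, 112 and 182 CPM against 44.4, 168 and 88.9 CPM. Both of those lineages overlapped.

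GB48511 had the largest average difference, 1.12, and varied widely between bees. In reproductive bees it ran from 0 to 31.5 CPM with a median of 9.15, and in sterile bees from 0 to 62.8 CPM with a median of 2.52. The highest bee of all was sterile, L888 Sterile 1 at 62.8 CPM. On the log scale its L888 difference was 0.14, while the mean in CPM there was 14.4 in reproductive and 21.95 in sterile bees. That was the only case among 92 combinations of member and lineage in which the order of the mean CPM went against the log scale. Its expected counts per bee ran from 0 to 510, and 7 bees had under 10.

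GB47270, second by average difference (0.76), had a pair of very high bees. It reached 104 CPM in L888 Reproductive 3 and 66.7 CPM in L882 Reproductive 1, and no other bee passed 17.54 CPM. Its median was 6.85 CPM in reproductive and 3.81 CPM in sterile bees, and the differences were 1.48 in L875, 0.10 in L882, 1.12 in L888 and 0.33 in L894. The largest difference, in L875, holds neither of those bees. GB49363 (average 0.74) ran from 0 to 34.4 CPM in reproductive bees with a median of 6.81, and from 1.41 to 12.3 CPM in sterile bees with a median of 2.23. Its largest difference was 1.71 in L882, where reproductive bees had 23.5 ± 14.96 CPM and sterile bees 6.33 ± 5.32 CPM (mean ± SD, n = 3 each).

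**Figure D2:**
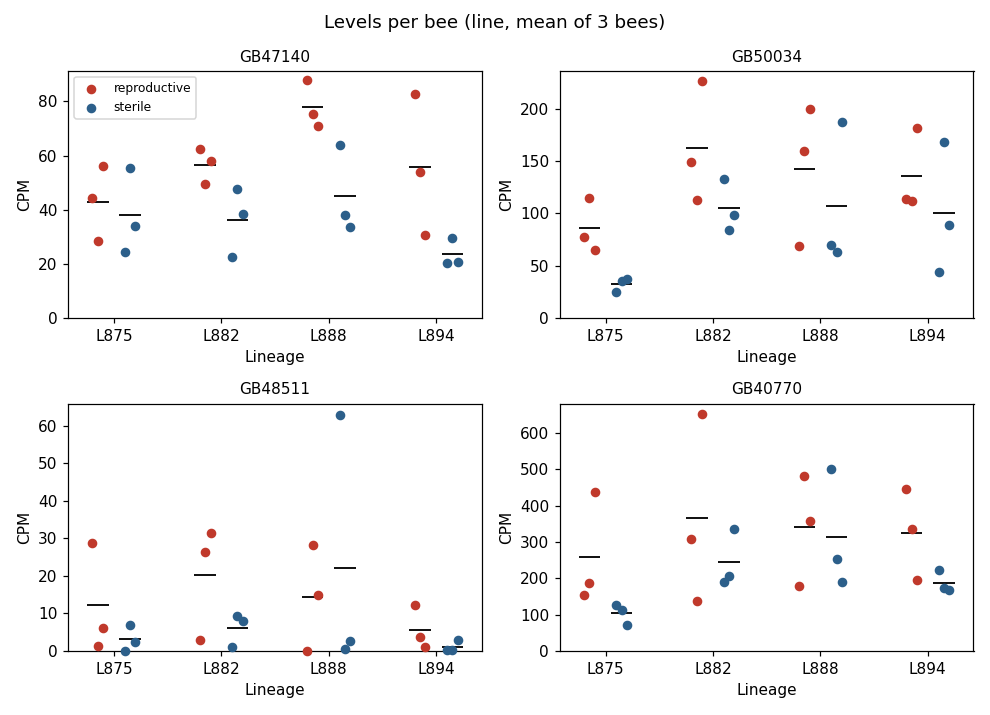
CPM in each bee for single genes of the list, by lineage, with reproductive and sterile bees in different colours. Points of the statuses interleave in most lineages, and GB48511 has its highest bee in a sterile L888 worker at 62.8 CPM.

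GB47974 (average 0.71) was separate in L875, where reproductive bees had 21.1 ± 4.56 CPM and sterile bees 10.1 ± 3.27 CPM (mean ± SD, n = 3 each). Its differences were 1.02 in L875 and 0.98 in L894, and 0.47 and 0.35 in L882 and L888. GB43070 (0.67) had 21.8 ± 4.65 CPM against 12.1 ± 6.43 CPM in L888 and differed by only 0.10 in L882. GB43513 (0.65) was a weakly expressed gene, at 9.44 ± 7.07 CPM in reproductive and 2.65 ± 0.842 CPM in sterile bees of L888, where the statuses were separate.

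GB40770 was the most abundant member, at a mean of 267 CPM. Reproductive bees ran from 137 to 652 CPM with a median of 321, and sterile bees from 71.8 to 501 CPM with a median of 190. In L875 it had 259 ± 155 CPM in reproductive and 104 ± 28.6 CPM in sterile bees, without overlap, and in L888 340 ± 152 against 314 ± 164 CPM. The differences were 1.195 and 0.12, so this gene had nearly the same level in both statuses of L888.

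GB54170, with a mean of 156 CPM, differed most in L888, where reproductive bees had 194 ± 17.3 CPM and sterile bees 113 ± 36.1 CPM without overlap. Its differences elsewhere were 0.20 in L875, 0.14 in L882 and 0.51 in L894. GB51369 (mean 114 CPM) had a sterile bee as its highest, at 249 CPM, beside a reproductive maximum of 207 CPM. GB55615 was the most even member, with differences of 0.55, 0.48, 0.39 and 0.51 in L875, L882, L888 and L894. Its reproductive bees had a median of 19.7 CPM and its sterile bees 13.7 CPM, and the statuses overlapped in all 4 lineages. GB54404 (average 0.55) had differences of 0.32 to 0.75, and GB52179 (0.55) of 0.16 to 0.92. The remaining 9 members had averages from 0.41 to 0.52.

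**Figure D3:**
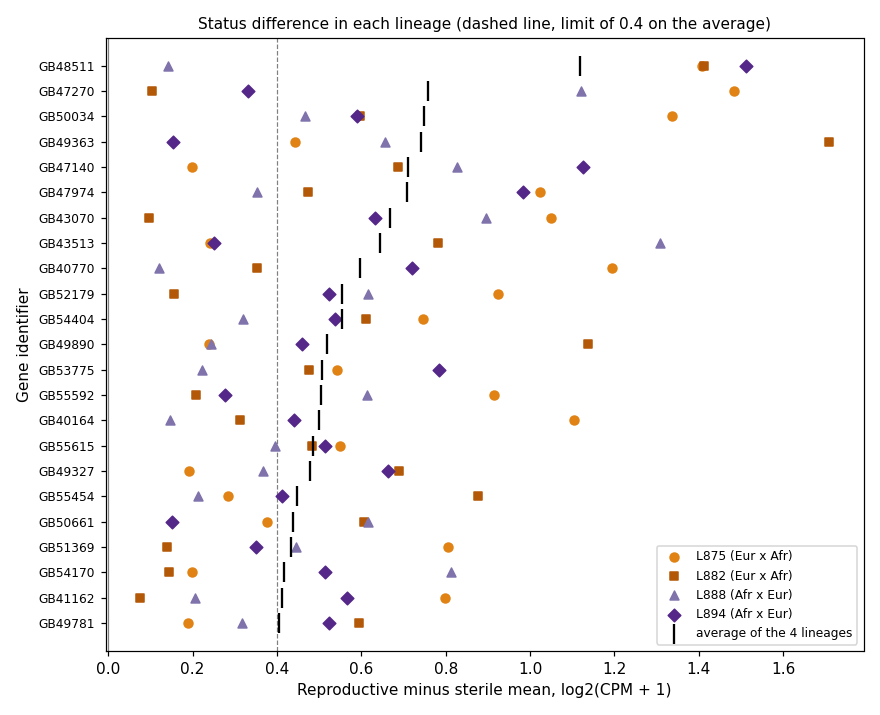
Reproductive minus sterile difference on the log2(CPM + 1) scale for each of the 23 genes, with 1 point per lineage. All points are above 0 by the rule, and their spread within a gene is wide: GB40770 runs from 0.12 in L888 to 1.195 in L875.

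Across the list, L875 had the largest difference for 12 of 23 members and L888 the smallest for 9. The median member difference was 0.75 in L875, 0.48 in L882, 0.39 in L888 and 0.52 in L894. Over all genes those medians were 0.05, 0.06, -0.01 and -0.03. A reproductive bee had the highest value for 19 members, which the rule favours.

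The members were weaker and more variable genes than most. Their median level was 12.5 CPM, beside 41.0 CPM over all 8262 genes, and 9 of 23 were under 10 CPM, beside 11.3% of all genes. The SD among bees of a group, on the log2(CPM + 1) scale, had a median of 0.64 for members and 0.36 for all genes, and 23 of 23 members were above the latter. Members were not compared with genes of a like level, so their wider spread and their lower level cannot be told apart. These values come from the bees that the rule used and are descriptions.

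**Figure D4:**
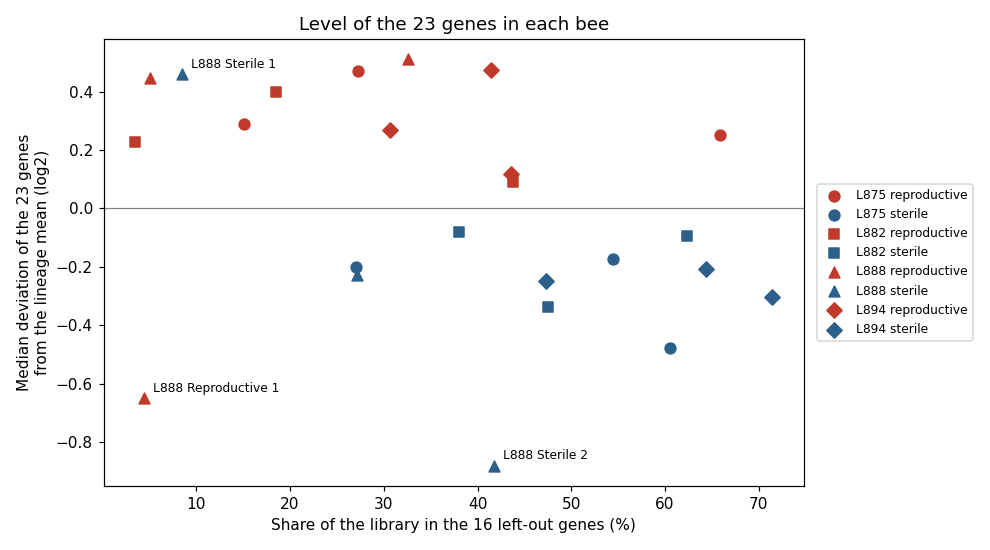
Median deviation of the 23 genes from the lineage mean in each bee (vertical axis, log2 scale) against the share of the library in the 16 left-out identifiers (horizontal axis, percent). Of 12 reproductive bees 11 are above 0 and of 12 sterile bees 1 is, a split that the rule favours. The bees going the other way are L888 Reproductive 1 and L888 Sterile 1, at shares of 4.39% and 8.47%.

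By bee, the median deviation from the lineage mean was positive in 11 of 12 reproductive and 1 of 12 sterile workers. The rule chose the genes by status in these same bees and so favours this split, which is a description. Both bees that went the other way were in L888. The 16 abundant identifiers took 4.39% of the library of L888 Reproductive 1 and 8.47% of that of L888 Sterile 1. They took 3.51% in L882 Reproductive 1 (deviation 0.23) and 5.08% in L888 Reproductive 3 (deviation 0.45). Whether this share had a part in the deviations was not tested. L888 Reproductive 1 had only 6 of 23 members above its lineage mean, and L888 Sterile 1 had 16. Its other bees were far apart: 22 members were above the mean in each of L888 Reproductive 2 and 3, and 1 was in L888 Sterile 2, whose median deviation was -0.88. Without L888 Reproductive 1 the rule gave 63 genes, without L888 Sterile 1 it gave 55, and without L888 Sterile 2 it gave 14. With both L888 Reproductive 1 and L888 Sterile 1 left out, a step chosen after their values were seen, it gave 100 genes, 19 of them members. In the allele tables the column letters for L888 stand the other way round from those of the other lineages, and what they stand for is not explained there. Status here follows the sample labels, and whether the statuses of L888 are exchanged was not tested. Membership of the list depends on that label. With the status of L888 exchanged the rule gave 94 genes, beside 23 as labelled.

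Some members moved together from bee to bee after the 8 group means were removed. The sets below were formed on these same correlations. High correlations were no more frequent among members than among all genes, as the next paragraph gives. The largest set held GB40770, GB47974, GB49363, GB49890 and GB54404, with pairwise r of 0.51 to 0.81 over 24 bees (median 0.66). It was highest in L888 Reproductive 3 and L882 Reproductive 3 and lowest in L888 Reproductive 1, at mean deviations of 1.06, 0.88 and -1.69. Of 8257 genes outside the set, 97 had an r above 0.7 with its mean and 127 an r under -0.7. The correlation of the set with GB55205 was -0.013. GB49781, GB50661, GB55454 and GB55592 formed a second set with r of 0.43 to 0.73 (median 0.71), high in L888 Sterile 1 (0.97) and low in L888 Sterile 2 (-0.83). Its mean had a correlation of -0.45 with GB55205. Of 8258 genes outside the set, 492 had an r above 0.7 and 31 an r under -0.7. GB50034, GB51369 and GB52179 formed another set, with r of 0.58 to 0.77 (median 0.60), high in L888 Sterile 3 (1.08). There 6 of 8259 other genes had an r above 0.7 and 1 an r under -0.7, and the correlation with GB55205 was 0.041.

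Over the whole list the correlations were low. Among its 253 pairs the median r was 0.13, beside 0.06 for pairs of all genes, and 13.04% of pairs (33) were above 0.5, beside 13.6%. These correlations share the same 24 libraries and are given without a test.

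A model across all genes with lineage and status as terms was fitted for context. edgeR's quasi-likelihood test with Benjamini-Hochberg adjustment called 0 of 9316 genes for status (0%), with 216 (2.32%) at an unadjusted p under 0.05, and DESeq2 called 1 of 9310 (0.0107%). Neither called a member. The rule used this contrast, and nothing about the members is read from it.

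The rule took differences within lineages, but its minimum of 5 CPM on the mean touches differences between them. GB43513, GB49327 and GB50661 met that minimum only through a lineage where they were high, with means of 4.47 CPM without L875, 4.57 CPM without L888 and 4.86 CPM without L882. The other 20 members met it without any 1 lineage. Whether a member's level differed among the 4 lineages was tested with edgeR's quasi-likelihood F test. It called 0 of 23 members, beside 4% of all genes. At an unadjusted p under 0.05 there were 9 members, beside 29% of all genes. DESeq2's likelihood ratio test called 7 of 23 (GB40164, GB43513, GB49327, GB50034, GB50661, GB53775 and GB55592), beside 14.4% of all genes. All 3 members that depended on a high lineage for the minimum are among these 7 and among the 9 above, so both counts are descriptions. The tools thus disagree on these 7, and the edgeR result is the main one.

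GB40164 had the smallest edgeR p. Its 6 bees per lineage averaged 21.7 ± 11.9 CPM in L875, 10.1 ± 3.50 in L882, 20.3 ± 6.91 in L888 and 20.3 ± 7.68 in L894 (mean ± SD). L882 was the lowest, and the bees of the other 3 lineages overlapped it. Its adjusted p in edgeR was 0.0693, and DESeq2 gave 0.0141. GB53775 had 7.26 ± 2.56 CPM in L875, 12.9 ± 4.56 in L882, 19.5 ± 6.38 in L888 and 10.5 ± 7.44 in L894, with adjusted p of 0.0694 and 0.0148 by the same tools. GB50034 was lowest in L875, at 59.3 ± 33.4 CPM, and had 134 ± 50.9, 125 ± 64.2 and 118 ± 50.9 CPM in L882, L888 and L894 (adjusted p 0.0721 in edgeR and 0.0160 in DESeq2).

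For these lineage differences, leaving out 1 bee changed the edgeR call in 4 cases. GB49327 and GB50034 passed without L888 Reproductive 1, GB49327 without L888 Sterile 2, GB53775 without L894 Reproductive 1 and GB50034 without L894 Sterile 2. GB49327 met the minimum only through L888, so its calls are descriptions.

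The reciprocal crosses were compared within blocks, as L888 minus L875 in block A and L894 minus L882 in block B. With edgeR, 0 of 23 members passed with 1 sign in A and B alike, beside 0.0107% of all genes, and 0 did so at an unadjusted p under 0.05, beside 0.322%. By block, edgeR called 0.15% of all genes in A and 0.118% in B, and 0 members in either. At an unadjusted p under 0.05 there were 6 members in A and 2 in B, beside 13.2% and 13.1% of all genes. Those in B were GB40164 and GB50661. GB50661 met the minimum of 5 CPM only through L882, where it was high, so the count in B is a description. DESeq2 called 2 members in A and 0 in B after adjustment, beside 0.891% and 0.762%. GB53775 differed in block A by 1.32 ± 0.35 on the log2 scale (SE, adjusted p 0.182 in edgeR), while in block B it was -0.30 ± 0.35. GB40164 showed the reverse, at -0.10 ± 0.31 in A and 1.09 ± 0.31 in B. The sign was the same in both blocks for 4 of 23 members, beside 34.9% of all genes. These include GB43513 and GB50661, which met the minimum CPM only through L875 and L882, so this count is a description.

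Reads that could be assigned to the mother's or the father's allele were given for 7 members (31.3% of all genes had them). The share of reads from a parent was not used by the rule. Reads were few for some of them. GB49363 had a median of 12 allele reads per bee, with equal paternal and maternal numbers in 17 of 24 bees. GB52179 had equal numbers in 16 of 24, also where reads were many, with 144 and 144 in L888 Sterile 3. The cause of the equal numbers was not tested, and these counts may not be independent reads of the alleles. GB55615 had 173 to 1117 reads per bee and GB55592 had 51 to 399. Their expected counts per bee were lower, at 35 to 279 and 6 to 120. In L882 Reproductive 3, GB55615 had 164 expected counts beside 1117 allele reads. How allele reads were counted is not given, so they may not be separate fragments.

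GB55615 stood out by lineage. Reproductive workers had paternal shares of 43.5 ± 8.80% (L875) and 43.0 ± 8.95% (L882), both Eur x Afr, and 61.9 ± 23.6% in L888 and 89.4 ± 2.31% in L894, both Afr x Eur (mean ± SD, n = 3). In sterile bees it was 55.3 ± 5.30%, 47.5 ± 6.01%, 78.6 ± 12.7% and 83.2 ± 6.11% in the same order. L888 was the most spread, with 48.1, 89.1 and 48.4% in its reproductive bees and 86.9, 85.0 and 64.0% in its sterile bees. In L894 all 6 bees were between 76.9 and 91.3%.

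**Figure D5:**
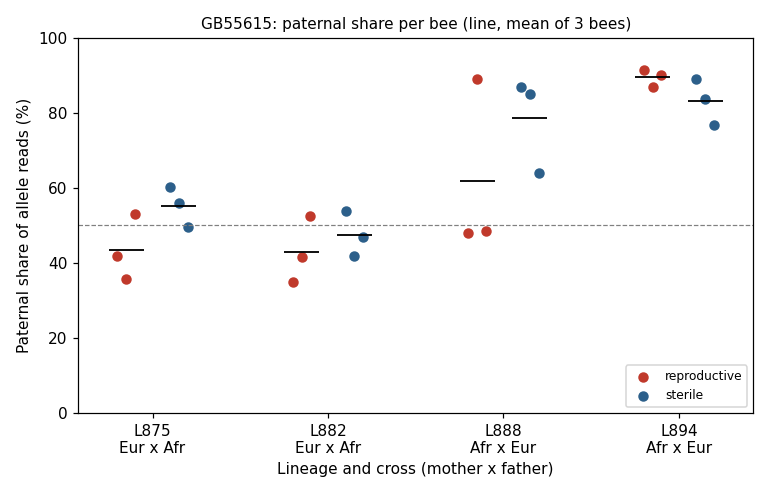
Paternal share of allele reads (percent) of the single gene GB55615 in each bee, by lineage and status. GB55615 lies between 34.8 and 60.2% in L875 and L882 and between 76.9 and 91.3% in L894.

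A model of allele reads with bee as block, a term for parent and a term for the African against the European allele was fitted for each status with edgeR. In sterile bees it called 1 of 6 tested members for parent, beside 9.37% of genes, and 1 of 6 for the African or European allele, beside 2.27%. Both calls were GB55615. Its paternal minus maternal log2 ratio was 1.14 ± 0.18 (SE, adjusted p 0.00534) and its African minus European ratio was -1.06 ± 0.18 (adjusted p 0.0109). These terms of the model add up in L888 and L894 and oppose each other in L875 and L882. They cannot be told apart from a difference particular to L888 and L894. The paternal share was above 50% in all 6 sterile bees of L888 and L894, and in 3 of the 6 of L875 and L882, which had 60.2, 56.0, 49.7, 53.8, 41.8 and 46.8%. In reproductive bees 0 of 7 members passed for parent, beside 10% of genes, and 0 of 7 for the African or European allele, beside 2.94%, with 1 member each at an unadjusted p under 0.05, beside 29.7% and 16.6% of genes. In sterile bees the unadjusted counts were 1 of 6 for parent and 2 of 6 for the African or European allele, beside 28.2% and 16.4%. In reproductive bees GB55615 had ratios of 0.84 ± 0.35 (adjusted p 0.142) and -1.23 ± 0.35 (adjusted p 0.0979).

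The calls depended on how bees of a lineage were treated. A limma fit that took lineage as random kept the parent call (adjusted p 0.0267) but not the African or European call (adjusted p 0.0600). It called 96 and 25 of 3480 genes for these terms. On lineage means in limma, neither passed (adjusted p 0.253 and 0.358). That fit called 0 of 3480 genes for either term, so the result is not particular to GB55615. Whether the parental ratio differed with status was tested on 6 members, and edgeR called 0 of them, beside 0% of 3414 genes. At an unadjusted p under 0.05 there were 0 members, beside 2.93% of genes. For GB55615 the difference was -0.30 ± 0.39 (SE, reproductive minus sterile, adjusted p 1 in edgeR).

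GB55592 had a paternal share of 36.6 ± 1.58% in reproductive bees of L882 and 60.2 ± 5.68% in those of L894, with 52.4 ± 12.7% and 43.7 ± 7.98% in L875 and L888. The parent term of edgeR for it was -0.10 ± 0.19 in reproductive and -0.08 ± 0.15 in sterile bees, and neither passed (adjusted p 0.787 and 0.777). Its African minus European ratio in edgeR was -0.22 ± 0.19 in reproductive bees (adjusted p 0.621) and -0.40 ± 0.15 in sterile bees (unadjusted p 0.0214, adjusted p 0.213). Summed over the members, the paternal share of a bee ran from 42.7% to 77.3%, while the median over all genes ran from 50.04% to 53.7%. Over all bees GB55615 gave more reads to that sum than any other member.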

How the data were processed

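Per the file headers and values, the authors deposited a table of expected counts per gene and bee, 87.3% of them exactly whole, and tables of allele read counts, paternal and maternal, for each status. HISAT2 and limma are listed, with no version or role, per the submitters' processing notes. Counter, annotation and genome build: not given in the sources used here. Expected counts were rounded and fitted with edgeR 4.0.16 (TMM, filterByExpr by status), in R 4.3.3, on all genes, with p adjusted by Benjamini-Hochberg at 0.05. DESeq2 1.42.0 and limma 3.58.1 were alternatives. Allele models took genes with at least 20 allele reads in every lineage. The edgeR fits for lineage, cross direction and alleles were tested on simulated data, as were limma allele fits by bee and with lineage as random. The edgeR status fit, the DESeq2 fits, limma on lineage means and limma fits of parental ratio by status were not. The members and gene lists were chosen with earlier results of these data known. The grouping of the low-count filter was adopted after 2 others had been run and their results seen. Genes were named by rule: the 10 largest averages, the 5 largest smallest differences, the 5 highest levels, the nearest to the limits, and up to 6 called per comparison. All 24 pairs of bees within a group differed by more than counting noise, with a median squared deviation of 5.45 to 175 times the counting variance. Totals here took in the 16 abundant identifiers, so these ratios hold differences in their share as well as spread between bees. The highest ratio was for L875 Reproductive 1 and 2, where that share was 65.9% and 15.1%.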

Additional observations from a re-analysis of the deposited data

How the results depend on the processing

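The number of genes meeting the rule depended strongly on its settings. It was 650 with totals over all genes (12 of the 23 shared), 13 with TMM sizes, 26 and 15 with pseudocounts of 0.5 and 5, 54 and 14 with a minimum of 1 and 10 CPM, and 39 without the correlation limit. Leaving out L875, L882, L888 or L894 gave 35, 75, 116 and 54, exchanging the status of L888 gave 94, and leaving out both L888 Reproductive 1 and L888 Sterile 1, added later, gave 100. Leaving out 1 bee gave 14 to 63, and GB50034 alone was kept in all 24 such lists. The cause was not tested. With totals over all genes the all-gene median status difference was 0.44, beside 0.02. Of the 23 average differences, 11 moved by more than the SD between lineages with totals over all genes, 1 with a pseudocount of 5, and 0 with TMM sizes or a pseudocount of 0.5.

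Members called for lineage differences were 0 in edgeR, 7 in DESeq2, and 0 to 2 without 1 bee. The 7 calls include GB43513, GB49327 and GB50661, and the calls without 1 bee include GB49327. Each of these genes met the minimum CPM only through a lineage where it was high, so these counts are descriptions. The 2 other groupings of the low-count filter had been run first: by the 8 groups (10071 genes tested, 395 called) and by the lineage and status design (9830 tested, 399 called), beside 9316 and 373 with the grouping by status. Each called 0 members for lineage or cross direction. Leaving out 1 bee called a member for 4, 6 and 4 bees with the groups, design and status groupings. Members called for cross direction were 0 to 0 without 1 bee, and for the African or European allele in reproductive bees 0 to 1, passing without L888 Reproductive 1 or 3. In sterile bees the parent call was 0 on lineage means and 1 to 1 without 1 bee. The African or European call was 0 with lineage as a random effect, 0 on lineage means, and 1 to 1 without 1 bee. On lineage means 0 of 3480 genes were called for either term. Parent in reproductive bees and parental ratio by status were 0 to 0. No paired analysis was possible because the labels give no replicate numbers, and the numbers that name bees here follow the order of the sample records. Low counts limit the weakest members: 9 were under 10 CPM.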
